A study of Mus musculus with 12 samples.

Results

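Testis RNA of mice given gut microbiota from water-treated donors after busulfan (IMC) was compared with that of mice given saline after busulfan (Sa). The comparison holds 6 of the 12 RNA-seq libraries of the series, 3 in each group, taken by their treatment labels. The comparison itself was chosen with earlier results of these data known. All mice are of the ICR stock, which is outbred, and both groups had been given busulfan once, when 3 weeks old. In the IMC group the microbiota came from donors given ddH2O and was transferred for 2 weeks, and testes were taken after another 3 weeks. The length of the saline treatment, the number of donors and the age at collection are not given in the labels, and the labels do not say whether each library is a separate animal, so the p-values reflect only how these libraries vary, which may be technical. The description also speaks of cultured testis without naming a culture step. The 3 untreated libraries (Con) serve below only as a reference level. Their columns carry another name prefix than the busulfan libraries, so a batch and the lack of treatment cannot be told apart there. Values are the authors' FPKM (fragments scaled to transcript length and to the library's mapped total), and the read depth behind them is unknown.

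Busulfan is an alkylating drug that kills dividing spermatogonia. Spermatogonia give rise to spermatocytes, which pass through meiosis to become round and then elongating spermatids, so a testis refills stage by stage from the spermatogonia that survive. Sertoli cells nurse the germ cells inside the tubule, Leydig cells outside it make testosterone, and peritubular myoid cells, endothelial cells and macrophages make up most of the remaining tissue. In bulk RNA, fewer cells of a type and less RNA per cell cannot be told apart.

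No gene passed the test across all genes. In limma 0 of 14370 genes were higher (0%) and 0 lower (0%) at an adjusted p under 0.05, and the smallest adjusted p was 0.816. At an unadjusted p under 0.05 there were 569 genes (3.96%), where 718.5 would be expected with no difference. Of these 227 (1.58%) were higher and 342 (2.38%) lower in IMC. The libraries of the groups did not overlap in 497 genes higher in IMC (3.46%) and 848 lower in IMC (5.9%), and member counts below are to be read against these shares. With median-of-ratios scaling those counts were 633 and 559, and with quantile normalization 579 and 521. Differences of more than 1 on the log2(FPKM + 1) scale (IMC minus Sa) were found in 109 genes lower and 29 genes higher in IMC. In 96 of these 109 Sa replicates 1 and 2 both lay above every IMC library, and in 35 Sa replicate 3 did. The largest single difference, 3.07 ± 1.05 (SE), belonged to BGI_novel_G000720, an unannotated gene of the authors' table, chosen here after its values were seen. It stood at 16.7, 18.8 and 25.6 FPKM in IMC and at 14.8 FPKM in Sa replicate 1, and was listed at 0 in Sa replicates 2 and 3.

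**Figure D1:**
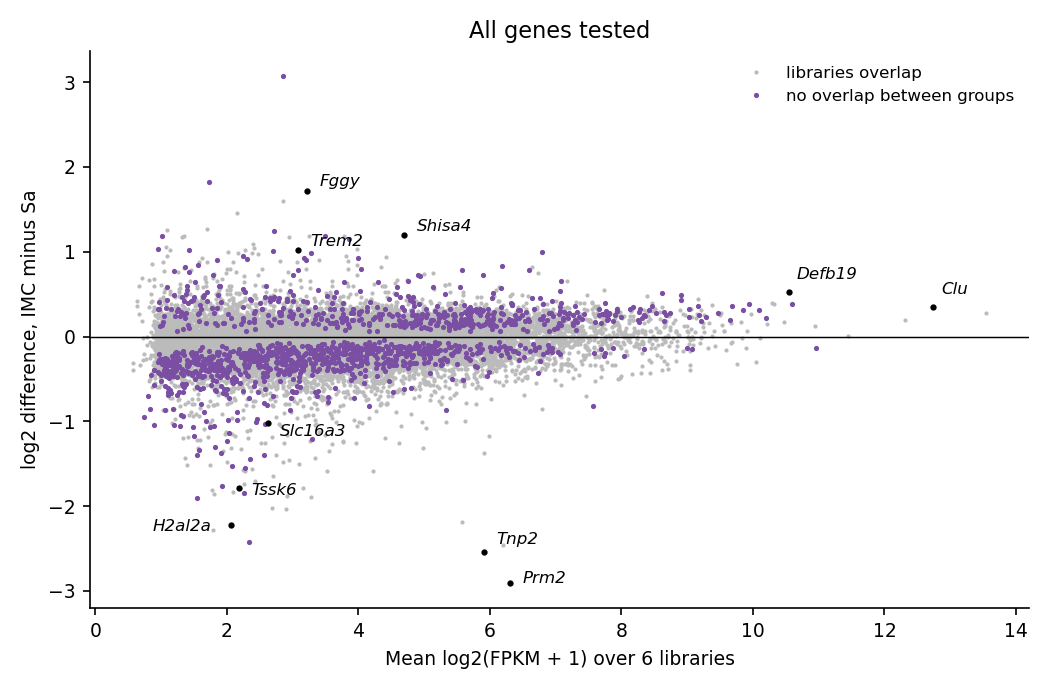
Log2 difference (IMC minus Sa, vertical axis) against mean log2(FPKM + 1) over the 6 libraries for all 14370 genes tested, with genes whose groups do not overlap in purple. The spermatid genes Prm2, Tnp2, H2al2a and Tssk6 lie lowest among the labelled genes at -2.90 to -1.79, and Fggy highest at 1.72.

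Of the 25 gene lists with at least 5 tested members, that of elongating and condensing spermatids had the lowest median difference, and its protamine and transition protein genes are described first. Protamines replace most histones in the sperm head, and transition proteins occupy the chromatin just before them. In the RefSeq table (GRCm38.p6) Tnp2, Prm3, Prm2 and Prm1 are neighbours in this order on chromosome 16, and Tnp1 lies on chromosome 1. The 120 bases before the RefSeq start of the 4 genes described first are shown because these genes were high and low in the same libraries. That pattern is not particular to them, since Sa replicates 1 and 2 lay above every IMC library in 28 of the 32 list members tested. Whether these sequences bear on it was not tested. Capitals mark matches to TGANNTCA, in which N is any base. This pattern includes, beside other sequences, the cAMP response element TGACGTCA, the site of CREM, a regulator of spermatid genes.
Prm1 (chr16:10796824-10796943, minus strand): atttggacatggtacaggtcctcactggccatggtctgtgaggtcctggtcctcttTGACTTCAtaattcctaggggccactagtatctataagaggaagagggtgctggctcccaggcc
Prm2 (chr16:10792106-10792225, minus strand): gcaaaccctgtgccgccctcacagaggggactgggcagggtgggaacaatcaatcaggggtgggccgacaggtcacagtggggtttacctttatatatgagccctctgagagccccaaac
Tnp1 (chr1:73015900-73016019, minus strand): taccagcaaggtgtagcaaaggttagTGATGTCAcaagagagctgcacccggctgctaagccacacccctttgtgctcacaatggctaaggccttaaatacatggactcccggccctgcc
Tnp2 (chr16:10788656-10788775, minus strand): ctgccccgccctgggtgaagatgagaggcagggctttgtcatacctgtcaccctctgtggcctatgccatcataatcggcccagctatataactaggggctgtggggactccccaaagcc
Both strands were searched over 250 bases before the start. Prm1 and Tnp1 hold 1 match each, starting 64 and 94 bases before the start, and no match was found in that window of Prm2 or Tnp2. The matches read TGACTTCA in Prm1 and TGATGTCA in Tnp1, so none of the 4 genes holds TGACGTCA there. Of all 32851 RefSeq promoter windows of this length, 11.9% hold TGANNTCA and 1.55% hold TGACGTCA.

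Prm2 (Gene ID 19119) stood at 587, 418 and 40.1 FPKM in Sa replicates 1 to 3 and at 39.8, 37.9 and 14.2 FPKM in IMC replicates 1 to 3. The Sa libraries all lay above the IMC libraries, but Sa replicate 3 did so by a margin that is small beside the gap between the Sa libraries. Prm1 (19118) stood at 484, 367 and 27.9 FPKM in Sa and at 44.1, 35.6 and 17.6 FPKM in IMC, so here Sa replicate 3 lay among the IMC libraries. Tnp1 stood at 238, 199 and 21.1 FPKM in Sa and at 30.1, 21.9 and 14.8 FPKM in IMC. Tnp2 stood at 345, 285 and 29.9 FPKM in Sa and at 33.4, 30.2 and 13.6 FPKM in IMC. In all 4 genes Sa replicates 1 and 2 were high, and Sa replicate 3 and the 3 IMC libraries were low. The untreated testes had 10641 ± 363 FPKM of Prm1 and 12867 ± 116 FPKM of Prm2 (SD, n = 3), far above every busulfan library.

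On the log2(FPKM + 1) scale Prm2 differed by -2.90 ± 1.01 (IMC minus Sa, SE; 95% interval -5.31 to -0.49). The difference was -2.46 ± 1.05 for Prm1 (interval -4.98 to 0.06), -2.19 ± 0.89 for Tnp1 and -2.54 ± 0.92 for Tnp2. None passed the threshold after adjustment over all genes (limma adjusted p = 0.816 for each).

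The histone variant H2al2a, which acts with the transition proteins in spermatid chromatin, stood at 16.7, 12.5 and 2.13 FPKM in Sa and at 1.00, 1.62 and 0.41 FPKM in IMC. Prm2 and H2al2a were the 2 of 32 elongating list members without overlap, a share close to the 5.9% of all genes lower without overlap, and Sa replicate 3 was the lowest Sa library in both. The log2 difference of H2al2a was -2.22 ± 0.65 (SE). It belongs to a multicopy family, so its reads may be split among copies.

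Of the 32 elongating and condensing spermatid genes tested, 31 had a lower mean in IMC, with a median log2 difference of -0.97. Over all 14370 genes tested, 60.3% had a lower and 39.7% a higher mean in IMC, with a median of -0.05. The exception was Pgam1, which averaged 288 ± 33.8 FPKM in IMC and 244 ± 34.8 in Sa and which, unlike the other members, encodes a glycolytic enzyme of most tissues. In 28 of the 32 genes Sa replicates 1 and 2 both lay above every IMC library, whereas Sa replicate 3 did so in 3. IMC replicate 3 was the lowest of the 6 libraries in 30 of them. Leaving out Sa replicate 1 gave a median of -0.60, and leaving out Sa replicate 3 gave -1.39.

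**Figure D2:**
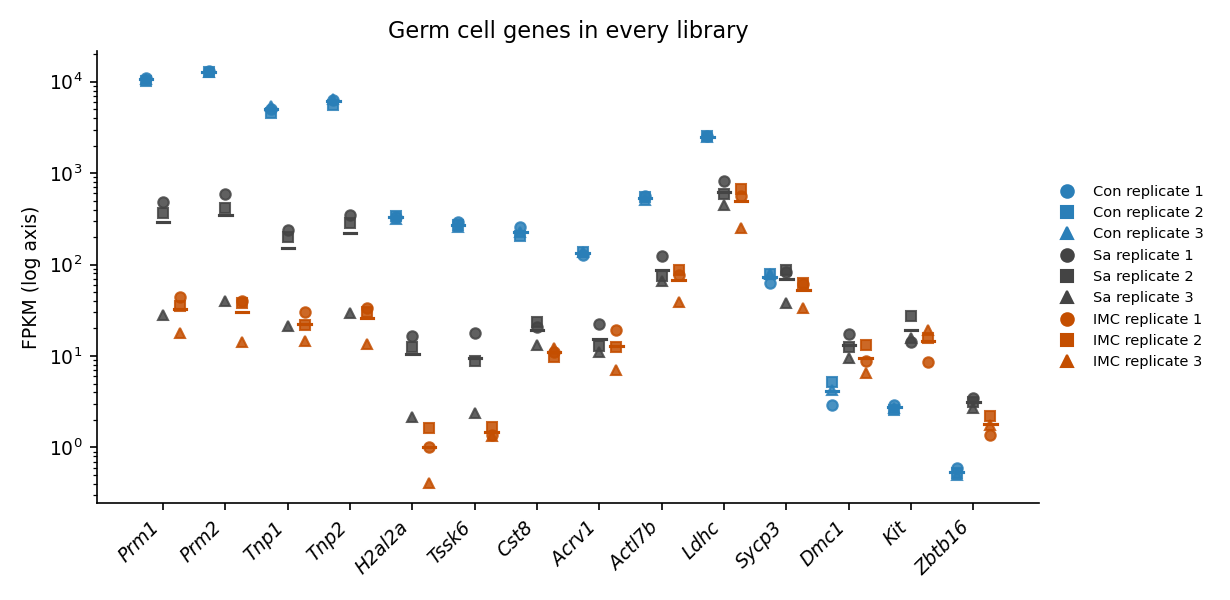
FPKM of 14 germ cell genes (log axis) in each library, with symbols for replicates, colours for Con, Sa and IMC, and short bars for group means. Sa replicates 1 and 2 stand at 367 to 484 FPKM for Prm1 while Sa replicate 3 (27.9 FPKM) lies among the IMC libraries, and for Ldhc, Sycp3, Dmc1 and Kit the 2 busulfan groups overlap.

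Earlier germ cell genes were also lower on average in IMC, by less and with overlap in most genes. Round spermatids build the acrosome and share many genes with elongating ones, and all 29 round spermatid genes tested had a lower mean in IMC (median -0.38, -0.05 without IMC replicate 3 and -0.12 without Sa replicate 1). Tssk6 and Cst8 were the 2 members without overlap, again a share close to the 5.9% of all genes. The spermatid kinase Tssk6 stood at 17.7, 8.78 and 2.36 FPKM in Sa and at 1.38, 1.66 and 1.33 FPKM in IMC, a log2 difference of -1.79 ± 0.57 (SE). Cst8, a cystatin of spermatids and the epididymis, averaged 11 ± 1.27 FPKM in IMC and 19.2 ± 5.44 in Sa (SD, n = 3). Acrv1, a protein of the acrosome, averaged 12.9 ± 6.01 FPKM in IMC and 15.5 ± 6.11 in Sa. Actl7b, an actin-like protein of spermatids, averaged 68.0 ± 25.5 and 88.2 ± 30.6 FPKM. For both genes the difference was smaller than the SD within either group. In the untreated testes Acrv1 stood at 135 ± 5.33 FPKM and Actl7b at 537 ± 28.1 FPKM.

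The level of a whole list, taken as the mean log2(FPKM + 1) of its members, set the elongating stage apart from the round stage in some libraries only. The elongating list lay above the round list by 0.73 and 0.89 in Sa replicates 1 and 2. In Sa replicate 3 the gap was -0.07, in the IMC libraries -0.15, -0.23 and -0.03, and in the untreated testes 1.53 to 1.62. Sa replicate 3 thus sat with the IMC libraries on this measure, which was chosen after the values were seen.

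Of the 21 pachytene and later spermatocyte genes tested, 19 had a lower mean in IMC (median -0.36, 0.05 without IMC replicate 3 and -0.15 without Sa replicate 1). Ldhc, the germ cell lactate dehydrogenase, stood at 563, 670 and 253 FPKM in IMC and at 820, 593 and 450 FPKM in Sa. Hspa2, a chaperone of spermatocytes, averaged 168 ± 57.1 FPKM in IMC and 240 ± 78.9 in Sa. Piwil1, which binds pachytene piRNAs, averaged 26.6 ± 9.59 and 45.8 ± 20.2 FPKM. In all 3 genes IMC replicate 3 was the lowest and Sa replicate 1 the highest library, and the other libraries overlapped.

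All 31 early meiotic prophase genes tested had a lower mean in IMC (median -0.42, -0.18 without IMC replicate 3 and -0.22 without Sa replicate 1). Sycp3, a lateral element protein of the synaptonemal complex, averaged 52.6 ± 16.4 FPKM in IMC and 69.2 ± 26.9 in Sa. Dmc1, the meiotic strand exchange protein, averaged 9.50 ± 3.38 and 13.2 ± 3.98 FPKM. Rec114, needed for meiotic DNA breaks, was the member with no overlap between the groups, at 3.37 ± 0.51 FPKM in IMC and 5.54 ± 1.13 in Sa (log2 difference -0.58 ± 0.18 SE). Syce2, a central element protein, averaged 35.1 ± 12.6 and 57.6 ± 21.9 FPKM, and Tex101, a germ cell surface protein, 142 ± 46.4 and 238 ± 108 FPKM. Both overlapped.

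The piRNA pathway silences transposons in germ cells, and its 21 genes tested were all lower on average in IMC (median -0.44, -0.24 without IMC replicate 3 and -0.26 without Sa replicate 1). Piwil2, a piRNA-binding Argonaute protein, stood at 27.3, 39.1 and 22.6 FPKM in IMC and at 79.7, 48.7 and 39.3 FPKM in Sa, with the lowest Sa library just above the highest IMC library. The helicase Mov10l1 averaged 19.8 ± 5.83 FPKM in IMC and 39.0 ± 15.5 in Sa. Mael, the most abundant member, averaged 228 ± 94.4 and 309 ± 104 FPKM and overlapped.

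Differentiating spermatogonia and cells entering meiosis had a median log2 difference of -0.41 over 15 genes, all with a lower mean in IMC and none free of overlap. Kit, the receptor that marks differentiating spermatogonia and that Leydig and mast cells also carry, averaged 14.5 ± 5.47 FPKM in IMC and 19.1 ± 7.13 in Sa. Stra8, the retinoic acid target that opens meiosis, averaged 22 ± 12.3 and 30.2 ± 9.27 FPKM. The transcription factor Sohlh2 averaged 8.52 ± 3.37 and 16.6 ± 6.29 FPKM (log2 difference -0.88 ± 0.33 SE). Dmrtb1, the most abundant member and a regulator of the entry into meiosis, averaged 89.8 ± 43.7 and 95.4 ± 30.4 FPKM. Uhrf1, which maintains DNA methylation in dividing cells, averaged 15.7 ± 6.34 and 25.2 ± 6.31 FPKM. The median of the list was -0.19 without IMC replicate 3 and -0.77 without IMC replicate 2.

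Undifferentiated spermatogonia include the stem cells, and theirs was the germ cell stage whose list levels did not overlap between the groups. The list level was 1.65, 1.82 and 1.65 in IMC and 2.04, 1.90 and 1.90 in Sa. Of its 20 members, 12 passed the filter on low values, 11 of them had a lower mean in IMC, and 5 had no overlap, where 5.9% of all genes were lower without overlap. Uchl1, a ubiquitin hydrolase that is also found in other cells and was the most abundant member, went the other way at 122 ± 25 FPKM in IMC and 117 ± 23.3 in Sa, with overlap. Zbtb16, a stem cell transcription factor, stood at 1.38, 2.21 and 1.78 FPKM in IMC and at 3.48, 3.16 and 2.71 FPKM in Sa. Ret and Gfra1, which together form the receptor of the niche factor GDNF, averaged 1.19 ± 0.11 and 0.98 ± 0.27 FPKM in IMC. The same genes averaged 1.86 ± 0.24 and 1.58 ± 0.15 FPKM in Sa. Bcl6b, induced by GDNF, averaged 2.32 ± 0.12 and 3.26 ± 0.14 FPKM. Their log2 differences were -0.57 ± 0.17 for Zbtb16, -0.38 ± 0.14 for Ret, -0.39 ± 0.16 for Gfra1 and -0.36 ± 0.12 for Bcl6b, and none passed (limma adjusted p = 0.816 for each). These levels are near the filter of 1 FPKM. A filter of 5 FPKM left out these genes and kept 4 of the 12 members, whose median was -0.07 in place of -0.37. Zbtb16 was at 0.54 ± 0.05 FPKM in the untreated testes, below all 6 busulfan libraries, whereas Gfra1 was at 2.56 ± 0.17 FPKM there, above all 6. FPKM is a share of the library, and protamine genes took a far larger share of the untreated libraries. Here and below, a lower untreated level therefore cannot be read as less RNA per testis or per cell.

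**Figure D3:**
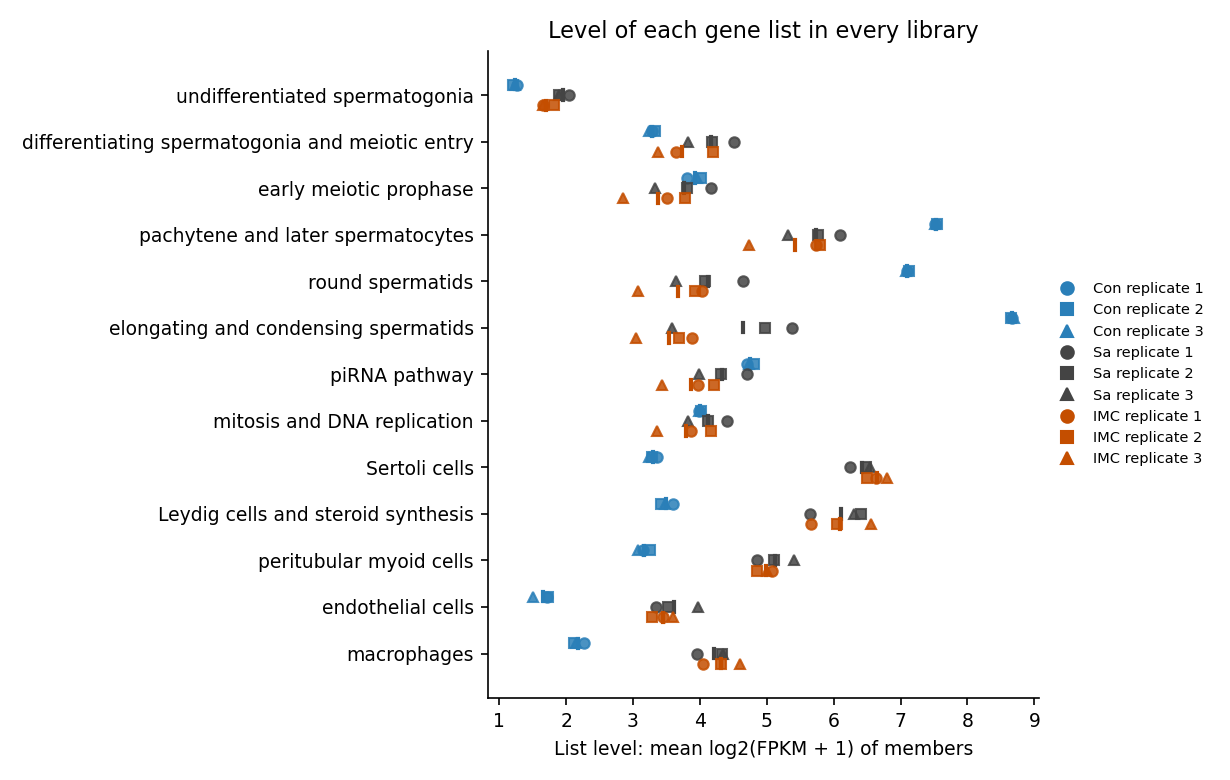
Level of 13 gene lists, as the mean log2(FPKM + 1) of their members (horizontal axis), in each Con, Sa and IMC library, with short bars for group means. The elongating spermatid list spans 3.58 to 5.37 in Sa and 3.05 to 3.88 in IMC, and undifferentiated spermatogonia are the germ cell stage shown in which the groups do not overlap.

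Spermatogonia are among the dividing cells of the testis. Of 27 mitosis and DNA replication genes 25 had a lower mean in IMC (median -0.33, -0.09 without IMC replicate 3 and -0.16 without Sa replicate 1). Ccnd1, a cyclin of the G1 phase, averaged 4.89 ± 0.75 FPKM in IMC and 7.52 ± 1.36 in Sa, without overlap. The helicase subunit Mcm6 averaged 18.5 ± 4.24 and 25.1 ± 4.81 FPKM, and Cdc20, an activator of the anaphase-promoting complex, 48.4 ± 20.7 and 71.1 ± 24.5 FPKM, both with overlap. In the untreated testes Ccnd1 stood at 1.83 ± 0.19 FPKM and Mcm6 at 10.5 ± 1.27 FPKM, below both busulfan groups, and Cdc20 at 106 ± 6.80 FPKM, above them. Like all FPKM, these are shares of a library and not amounts per testis. The 100 genes most abundant in untreated testis, chosen on the Con libraries alone, had a median of -0.34 with 88 of them lower on average in IMC (-0.02 without IMC replicate 3).

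The 6 libraries did not form 2 groups by correlation or along the axis of largest variance. Correlations of log2 values over the genes tested were 0.960 to 0.981 within IMC, 0.956 to 0.977 within Sa and 0.921 to 0.981 between the groups. Along the axis of largest variance (57.4%) in a principal component analysis, IMC replicate 3 stood at -47.1 and Sa replicate 3 at -15.9. IMC replicates 1 and 2 followed at 1.4 and 6.9, and Sa replicates 2 and 1 at 13.5 and 41.2. IMC replicate 3 and Sa replicate 3 were also the lowest libraries for the elongating list, and Sa replicates 2 and 1 the highest. On the next axis (14.5%) IMC replicates 1 to 3 stood at 28.7, 3.7 and -6.5. Sa replicates 1 to 3 stood at -7.8, -11.5 and -6.5 there, so the groups met at replicate 3. The summed FPKM ranged from 476127 to 501122 and the number of genes at 1 FPKM or more from 13848 to 14474.

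Sertoli cell genes were higher on average in IMC, by little. Of 34 tested, 31 had a higher mean in IMC and 10 had no overlap in that direction (median 0.23, and between 0.13 and 0.31 when any 1 library was left out). Clu, the secreted chaperone clusterin and the most abundant of them, stood at 7373, 7233 and 8678 FPKM in IMC and at 5672, 5713 and 6919 FPKM in Sa. Rhox8, a homeobox gene of Sertoli cells, averaged 62.6 ± 11.6 FPKM in IMC and 36.4 ± 9.76 in Sa (log2 difference 0.78 ± 0.24 SE). The protease Ctsl averaged 1775 ± 164 and 1364 ± 191 FPKM. The identity factor Sox9 averaged 43.4 ± 3.86 and 38.3 ± 5.22 FPKM and Amh, the anti-Müllerian hormone, 26.3 ± 0.86 and 23.5 ± 2.64 FPKM, and in these 2 genes the groups overlapped. The Sertoli list and the elongating spermatid list had opposite extremes, since Sa replicate 1 was lowest for the first and highest for the second, and IMC replicate 3 the reverse. The part of the germ cell share in the Sertoli values was not tested.

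Beta-defensins are small secreted peptides, and 3 of their genes were picked by the naming rules, with no list of the family. Defb36 is a member of the Sertoli list and is already counted there. Defb45 was picked on condition that the groups did not overlap, and Defb19 was picked for its abundance. Defb19 stood at 1723, 1641 and 2019 FPKM in IMC and at 1265, 1104 and 1368 FPKM in Sa. Defb36 stood at 551, 508 and 663 FPKM in IMC and at 394, 362 and 464 FPKM in Sa. Defb45 stood at 43.0, 37.0 and 34.8 FPKM in IMC and at 25.2, 22.4 and 21.5 FPKM in Sa. In all 3 genes every IMC library lay above every Sa library. Their log2 differences were 0.53 ± 0.14, 0.49 ± 0.15 and 0.71 ± 0.12 (SE), with 95% intervals of 0.19 to 0.86, 0.15 to 0.84 and 0.42 to 0.99. In the RefSeq table Defb19, Defb45 and Defb36 are consecutive protein-coding genes on chromosome 2. Their neighbours Defb21 and Defb25 did not exceed 0.39 and 0.32 FPKM in the 6 libraries. Defb21 was listed at 0 in all IMC libraries and at 0.39, 0.19 and 0.12 FPKM in Sa. Cstdc1, a cystatin-domain gene, averaged 169 ± 10.6 FPKM in IMC and 108 ± 12.1 in Sa (log2 difference 0.65 ± 0.11). None passed after adjustment (limma adjusted p = 0.816 for each).

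**Figure D4:**
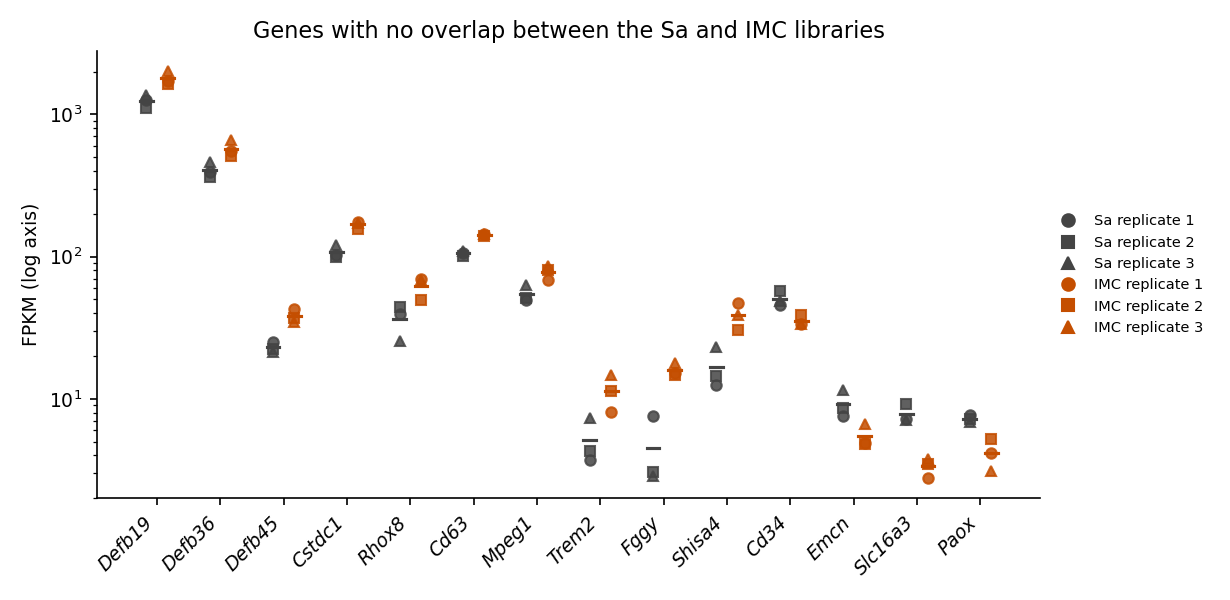
FPKM of 14 genes outside the germ cell stages (log axis) in each Sa and IMC library, with short bars for group means. All 14 were chosen because their groups do not overlap, and most differ by less than 2-fold, as Defb19 does at 1246 FPKM in Sa and 1794 in IMC.

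Genes of the blood-testis barrier, which Sertoli cells form, had a median of 0.13 over 23 tested, with 17 higher on average in IMC. Cldn11, its main claudin, averaged 649 ± 49.1 FPKM in IMC and 506 ± 67.6 in Sa, without overlap. The junctional adhesion molecule F11r averaged 157 ± 14.7 and 125 ± 23.5 FPKM. Cldn23, a claudin outside the list, averaged 18.6 ± 1.26 and 12.5 ± 0.74 FPKM (log2 difference 0.54 ± 0.11 SE).

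Leydig cell genes showed no common direction, with 11 of 22 higher and 11 lower on average in IMC and a median of -0.02 (0.18 without IMC replicate 1 and -0.31 without IMC replicate 3). Insl3, a peptide hormone of Leydig cells, stood at 3248, 4563 and 10883 FPKM in IMC and at 3199, 6165 and 5463 FPKM in Sa, so that IMC replicate 3 alone held the higher mean. Cyp17a1, which makes androgens, averaged 844 ± 377 FPKM in IMC and 1033 ± 423 in Sa (95% interval of the log2 difference -1.42 to 0.78). Star, which carries cholesterol into mitochondria, averaged 106 ± 29.1 and 113 ± 29.6 FPKM. Nr0b1, a repressor of steroid synthesis that Sertoli cells also express, was higher without overlap at 80.3 ± 2.65 and 63.0 ± 8.62 FPKM. Tspo, a mitochondrial membrane protein, averaged 57.8 ± 6.74 and 45.3 ± 6.92 FPKM, also without overlap.

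Of 24 cholesterol synthesis genes 20 had a lower mean in IMC (median -0.19). Srebf2, the transcription factor that drives these genes, averaged 25.6 ± 2.89 FPKM in IMC and 31.9 ± 1.99 in Sa, without overlap. Fdps, the most abundant member and a farnesyl diphosphate synthase, averaged 95.1 ± 34.7 and 103 ± 19.2 FPKM with overlap. In all, 4 of the 24 members were free of overlap and lower in IMC, and 1 was higher. The list median was -0.09 without IMC replicate 1 or Sa replicate 2 and -0.38 without IMC replicate 3.

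Endothelial and contractile genes had no member past the test. Of 14 endothelial genes 12 had a lower mean (median -0.20, and -0.05 without Sa replicate 3). The endothelial sialomucin Emcn stood at 4.89, 4.80 and 6.65 FPKM in IMC and at 7.63, 8.59 and 11.5 FPKM in Sa. Cd34, a surface glycoprotein of endothelial and stromal cells, averaged 35.3 ± 3.07 and 50.6 ± 6.42 FPKM (log2 difference -0.50 ± 0.12 SE). The endothelial receptor gene Robo4 lay the other way at 41.9 ± 4.14 and 28.2 ± 6.72 FPKM. The junction genes Cdh5, at 12.3 ± 0.84 and 14.4 ± 2.94 FPKM, Pecam1, at 7.85 ± 1.93 and 9.08 ± 3.05 FPKM, and Cldn5, at 45.7 ± 6.36 and 58.0 ± 16.4 FPKM, overlapped between the groups. Among 14 peritubular myoid genes 12 had a lower mean (median -0.16, -0.01 without Sa replicate 3, and none free of overlap). Smooth muscle actin Acta2 averaged 211 ± 15.6 and 245 ± 59.0 FPKM, the myosin Myh11 37.9 ± 2.06 and 46.8 ± 11.1 FPKM, and Actg2 21.6 ± 5.32 and 27.5 ± 5.65 FPKM. Myl9, the most abundant of the list, averaged 484 ± 41.1 and 426 ± 73.2 FPKM. Actg2 differed from the others in the untreated testes, where it stood at 251 ± 7.89 FPKM, above every busulfan library. Acta2, Myh11 and Myl9 stood below every busulfan library there, at 30.3 ± 4.03, 8.1 ± 0.93 and 51.1 ± 6.98 FPKM. The cell type behind the Actg2 values was not tested. In the extracellular matrix list 20 of 26 were lower on average (median -0.13, and -0.05 without Sa replicate 3), with Col15a1, a basement membrane collagen, at 12.6 ± 1.43 and 16.3 ± 1.70 FPKM. The inhibitor Timp1, at 136 ± 44.8 and 79.2 ± 36.9 FPKM, and Sparc, at 1469 ± 229 and 1136 ± 221 FPKM, had higher means in IMC with overlap.

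Macrophage genes gave a mixed picture in which the defining markers gave intervals around 0. Csf1r, the receptor for the macrophage growth factor, averaged 17.5 ± 4.90 FPKM in IMC and 17.3 ± 3.71 in Sa, with a 95% interval of -0.56 to 0.56 for the log2 difference. Cd68, a lysosomal protein, averaged 16.2 ± 4.30 and 14.5 ± 3.38 FPKM (interval -0.43 to 0.71). Adgre1, a macrophage surface antigen, averaged 4.35 ± 0.58 and 4.67 ± 1.51 FPKM, and the lipid carrier Apoe, the most abundant member, 460 ± 224 and 403 ± 147 FPKM. Trem2, a lipid-sensing myeloid receptor, stood at 8.02, 11.3 and 14.7 FPKM in IMC and at 3.73, 4.27 and 7.39 FPKM in Sa (log2 difference 1.02 ± 0.29 SE). Mpeg1, a pore-forming protein of phagocytes, averaged 78.3 ± 8.90 and 54.6 ± 7.16 FPKM. Trem2 and Mpeg1 were the 2 of 23 macrophage genes without overlap, and the list had 17 higher members and a median of 0.11 (-0.05 without IMC replicate 3 or Sa replicate 1). Cd63, a tetraspanin of lysosomes and secretory vesicles outside the list, stood at 144, 139 and 143 FPKM in IMC and at 106, 101 and 110 FPKM in Sa (log2 difference 0.42 ± 0.08 SE).

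Few other blood and neighbouring cells were visible. No lymphocyte gene passed the filter, with Cd3e at 0.86 FPKM or less and Cd79a at 0.14 FPKM or less in the 6 libraries. The neutrophil genes S100a8 and S100a9 were at 0.85 and 0.83 FPKM or less, and the epididymal Crisp1 at 0.09 FPKM or less. Wfdc10, a protease inhibitor gene listed with the epididymis, averaged 669 ± 81.4 FPKM in IMC and 498 ± 102 in Sa although Crisp1 was near 0. The globin Hba-a1 averaged 179 ± 25.8 and 217 ± 61.7 FPKM, and Alas2, a haem synthesis enzyme of red cells, 60.4 ± 8.87 and 48.1 ± 6.28 FPKM, and both overlapped. The level of the 7 red cell genes was 2.15, 2.80 and 2.18 in IMC and 2.06, 2.05 and 1.98 in Sa, without overlap. IMC replicate 2 also held 14.1 FPKM of the beta-globin Hbb-bs, against 0.58 FPKM or less in the other 5 libraries. Camp, an antimicrobial peptide of neutrophils, averaged 3.66 ± 1.75 and 2.06 ± 1.82 FPKM, and Cst11, a cystatin listed with the epididymis, 1.23 ± 0.39 and 1.01 ± 0.79 FPKM. Of the genes listed for adipocytes, Fabp4, which capillaries also express, and Adipoq averaged 2.69 ± 0.30 and 0.59 ± 0.39 FPKM in IMC. They averaged 4.33 ± 1.02 and 1.17 ± 0.48 FPKM in Sa. In the untreated testes Adipoq stood at 12.1 ± 0.76 FPKM, above every busulfan library, and Fabp4 at 0.46 ± 0.16 FPKM, below every one. The 2 genes thus did not move together, and whether they report adipocytes here was not tested.

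Genes that sense microbes or their products are of interest because the treatment was a transfer of gut microbiota. Of 32 such genes 15 passed the filter, 10 of them with a higher mean in IMC, and their median was 0.11 (-0.07 without Sa replicate 1). The receptors for short-chain fatty acids Ffar2 and Ffar3 did not exceed 0.07 and 0.04 FPKM in any of the 6 libraries. Pycard, the inflammasome adaptor, was the member without overlap at 2.85 ± 0.16 FPKM in IMC and 2.05 ± 0.31 in Sa. Vdr, the vitamin D and bile acid receptor, averaged 28.7 ± 1.47 and 24.4 ± 3.63 FPKM and overlapped.

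Of 21 inflammatory signalling genes tested, 18 had a higher mean in IMC and 2 had no overlap (median 0.26, and 0.13 without IMC replicate 3). The list level was 2.76, 2.70 and 3.16 in IMC and 2.39, 2.62 and 2.85 in Sa, with overlap. As for the Sertoli list, Sa replicate 1 was lowest and IMC replicate 3 highest. The part of the germ cell share in the inflammatory values was not tested. Relb, a subunit of NF-kB, averaged 18.8 ± 1.89 FPKM in IMC and 14.5 ± 1.57 in Sa, and the cytokine Il1a 7.75 ± 1.29 and 5.54 ± 0.83 FPKM. Vcam1, an adhesion molecule and the most abundant member, averaged 117 ± 56.4 and 122 ± 55.2 FPKM. The interferon and MHC list had a median of 0.12 (-0.02 without IMC replicate 3) with no member free of overlap. There H2-D1, a classical MHC class I gene, averaged 198 ± 25.6 and 150 ± 25.4 FPKM and the peptide transporter Tap2 10.7 ± 1.73 and 8.43 ± 0.63 FPKM. B2m, the light chain of MHC class I, averaged 199 ± 53.7 and 174 ± 47.0 FPKM. The p53 and apoptosis list had a median of 0.04 over 23 genes. Its members Bbc3, which promotes apoptosis, and Sesn2, a stress protein, averaged 4.87 ± 0.24 and 92.6 ± 2.94 FPKM in IMC and 3.83 ± 0.18 and 79.3 ± 7.45 in Sa.

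**Figure D5:**
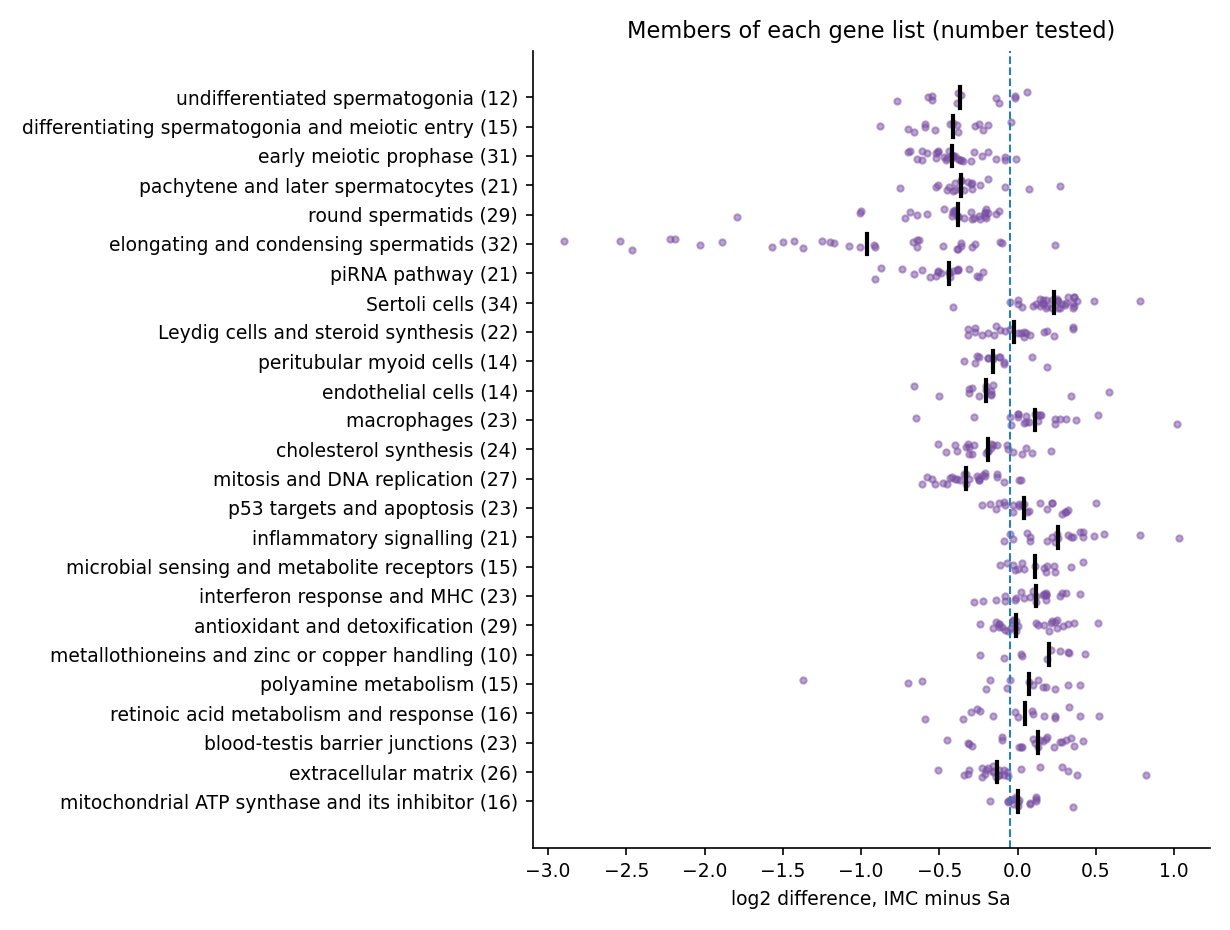
Log2 difference (IMC minus Sa, horizontal axis) of each tested member of 25 gene lists, with a black bar at the list median and a dashed line at the median of all genes tested (-0.05). Elongating spermatid genes reach furthest left with a median of -0.97, and the Sertoli list, at 0.23, and the inflammatory list, at 0.26, lie furthest right.

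Antioxidant and detoxifying genes had a median of -0.01 over 29 tested (0.19 without IMC replicate 1), with 4 free of overlap and higher in IMC. Gstp1, a glutathione transferase, stood at 390, 449 and 591 FPKM in IMC and at 316, 335 and 337 FPKM in Sa. Prdx6, a peroxiredoxin, averaged 166 ± 2.08 and 140 ± 6.63 FPKM. Gstm1, the most abundant transferase, averaged 2104 ± 605 and 1933 ± 516 FPKM and overlapped. Of 10 metal-handling genes 8 had a higher mean in IMC (median 0.20). The metallothionein Mt2, which binds zinc and copper, stood at 478.3, 532.2 and 683.3 FPKM in IMC and at 477.4, 370.6 and 398.1 FPKM in Sa. Its neighbour Mt1 averaged 585 ± 83.0 and 467 ± 30.8 FPKM. In both genes the lowest IMC library lay within 3 FPKM of the highest Sa library.

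Polyamine and retinoic acid genes had medians near 0, at 0.07 over 15 and 0.04 over 16 genes. Paox, an oxidase of polyamine breakdown, stood at 4.16, 5.19 and 3.13 FPKM in IMC and at 7.70, 7.20 and 6.87 FPKM in Sa (log2 difference -0.70 ± 0.17 SE). Sat2, of the spermidine acetyltransferase family, averaged 77.5 ± 5.92 and 62.3 ± 11.3 FPKM. Oaz1, which holds back polyamine synthesis, averaged 209 ± 24.3 and 214 ± 6.80 FPKM. Aldh1a1, which makes retinoic acid, averaged 947 ± 369 and 935 ± 229 FPKM. The retinoic acid receptor Rarg averaged 4.19 ± 0.83 and 5.56 ± 0.54 FPKM. Mitochondrial ATP synthase genes had a median of 0.00 over 16. Their inhibitor Atpif1 averaged 151 ± 18.1 and 118 ± 10.4 FPKM without overlap, and the subunit gene Atp5pb 102 ± 7.07 and 116 ± 11.5 FPKM with overlap. The catalytic subunit gene Atp5b averaged 519 ± 35.8 and 518 ± 8.59 FPKM.

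The genes with the smallest unadjusted p among those free of overlap, where the higher group reached 5 FPKM, belonged to no single list. The carbohydrate kinase gene Fggy stood at 15.1, 14.8 and 17.8 FPKM in IMC and at 7.54, 3.06 and 2.89 FPKM in Sa. Its log2 difference of 1.72 ± 0.31 (95% interval 0.97 to 2.46) was the largest of the named genes that were higher in IMC. Gp1bb, a subunit of a platelet receptor, averaged 9.33 ± 2.24 and 3.39 ± 1.13 FPKM, Shisa4 averaged 39.0 ± 8.40 and 16.8 ± 5.74 FPKM, and Cox7a1, a muscle form of a cytochrome oxidase subunit, 56.5 ± 3.87 and 37.6 ± 5.30 FPKM. In the other direction the lactate exporter Slc16a3 stood at 2.77, 3.50 and 3.78 FPKM in IMC and at 7.20, 9.24 and 7.05 FPKM in Sa (log2 difference -1.02 ± 0.16; interval -1.41 to -0.63). Trim80 averaged 2.86 ± 0.46 and 7.05 ± 2.83 FPKM and Lbr, the lamin B receptor, 7.13 ± 1.17 and 11.9 ± 2.17 FPKM. In the untreated testes they stood at 104 ± 8.64 and 7.98 ± 0.45 FPKM, so Trim80 was far above every busulfan library there. Map7d1, a microtubule-associated protein, averaged 11.9 ± 0.87 and 17.1 ± 1.77 FPKM, and the phosphatase Ptp4a3 17.5 ± 2.00 and 25.6 ± 2.81 FPKM. These genes were picked for a small p and for no overlap, so their gaps and intervals follow in part from the choice. Slc16a3 and Fggy did not pass (limma adjusted p = 0.816 for both).

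Of the 8 most abundant transcripts, Clu, Defb19, Ctsl, Insl3 and Gstm1 are described above, and Defb19 differed most of the 8 on the log2 scale (0.53). Col19a1, a collagen gene, led with 13242 ± 1222 FPKM in IMC and 10962 ± 1489 in Sa. Ubb, a ubiquitin gene, averaged 2792 ± 221 and 2782 ± 407 FPKM (95% interval of the log2 difference -0.35 to 0.38). The translation factor Eef1a1 averaged 1893 ± 61.9 and 2088 ± 49.1 FPKM, lower in IMC without overlap by a log2 difference of -0.14 ± 0.11. Ubb, Eef1a1, Hba-a1, Gstm1, Gstp1 and H2-D1 have near-identical relatives, and how the authors' counting split their reads is not known.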

How the data were processed

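RNA-seq of 12 testis libraries was deposited as 1 table of FPKM values made by the authors, per the file headers. For the aligner, counting method, genome build and annotation the entry reads: not given in the sources used here. All 12 columns of the table were matched to samples through the labels. Of 22221 rows, 20288 carry NCBI Gene IDs, of which 20141 matched a RefSeq symbol (GRCm38.p6).

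The 3 IMC and 3 Sa libraries were fitted alone on log2(FPKM + 1), using limma (version 3.58.1, under R 4.3.3) and its trend option, over the 14370 genes with at least 1 FPKM in 3 or more of the 6 libraries. P-values were adjusted by Benjamini-Hochberg over all genes, with a threshold of 0.05. Log2 differences understate the change of low genes. The fit was tested on simulated data. FPKM keeps no depth, so no counting interval is given.

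The comparison, its 30 gene lists (643 of 650 entries in the table) and the tests were chosen with earlier results of these data known, so lists carry counts and medians (where at least 5 members were tested) but no test. Genes were named by rule: up to 8 per direction with the smallest p among those without overlap and with 5 FPKM in the higher group, the 2 smallest p and the most abundant member per list, the 8 most abundant genes, and fixed cell type markers. Of the 123 genes so named, 6 were not tested and 2 are not reported here.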

Additional observations from a re-analysis of the deposited data

How the results depend on the processing

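Alternatives numbered 15. No gene passed in limma under any of them except 1 gene higher in IMC without Sa replicate 1, an unannotated gene of the authors' table, and leaving out 1 library gave 0 to 1 genes higher. The count at an unadjusted p under 0.05 (569) ranged from 206 to 1422 when 1 library was left out. It was 930 with no filter, 368 with a filter of 5 FPKM, 136 with all 12 libraries, 1122 with all but IMA10 replicate 3 and 1516 with array weights. Whether the replicate numbers pair the libraries could not be decided with 3 libraries per group. Same-numbered deviations from the group means correlated at 0.34, -0.12 and 0.58. IMC replicates 1 and 3 correlated best with the same-numbered Sa libraries, and IMC replicate 2 with Sa replicate 1 (0.49). With the replicate block the count was 1467 and no gene passed.

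Genes without overlap numbered 528 lower with a filter of 5 FPKM, 559 with median-of-ratios scaling and 521 with quantile normalization. With 1 library left out, which makes non-overlap easier, they numbered 1163 to 2709 lower and 723 to 1858 higher. The undifferentiated spermatogonia median was -0.54 with a pseudocount of 0.1, -0.14 with no filter and -0.07 with 5 FPKM, where only 4 members remained. The polyamine median was -0.05 with 5 FPKM, the microbial sensing median -0.07 with array weights and the all-gene median 0.01 with quantile normalization. Array weights also gave medians below 0 for macrophage (-0.09), interferon and MHC (-0.04) and p53 genes (-0.01). They gave -0.39 for Leydig and for cholesterol genes, -0.14 for pachytene and -0.07 for round spermatid genes. The elongating median was -0.88 and the Sertoli median 0.16 with these weights. Leaving out 1 library gave -0.07 to 0.18 for microbial sensing, -0.02 to 0.19 for antioxidant, -0.06 to 0.09 for polyamine and 0.08 to 0.22 for barrier genes.

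Of 115 named genes 22 changed direction, none of them past the threshold. With array weights Acrv1 was at 0.05, Cd68 at -0.08, Csf1r at -0.24, Gstm1 at -0.23, Insl3 at -0.33, Apoe at -0.38, Atp5b at -0.03, B2m at -0.18 and Dmrtb1 at 0.11. With quantile normalization Ubb was at -0.39, Col19a1 at -0.00, Adgre1 at 0.05 and Atp5b at -0.05, and with median-of-ratios scaling Aldh1a1 at 0.04, Oaz1 at 0.01 and Vcam1 at 0.02. With 1 library left out the log2 difference ranged from -0.60 to 0.06 for Acrv1, -0.05 to 0.29 for Cd68, -0.20 to 0.15 for Csf1r and -0.68 to 0.11 for Cyp17a1. It ranged from -0.10 to 0.30 for Gstm1, -0.31 to 0.57 for Insl3, -0.67 to 0.03 for Ldhc and -0.34 to 0.06 for Pecam1, and from -0.32 to 0.05 for Star and -0.06 to 0.13 for Ubb. Of the others it ranged from -0.29 to 0.09 for Adgre1, -0.32 to 0.17 for Aldh1a1, -0.22 to 0.43 for Apoe, -0.03 to 0.06 for Atp5b and -0.15 to 0.46 for Cst11, and from -0.49 to 0.30 for Dmrtb1, -0.43 to 0.09 for Fdps, -0.10 to 0.05 for Oaz1, -0.07 to 0.24 for Uchl1 and -0.46 to 0.27 for Vcam1. The cause of these changes was not tested. Read depth is unknown, so what it limits could not be assessed.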
